A study of Mus musculus with 4 samples.

Results

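Red blood cell transcripts formed a separate population in liver aspirates of mice on the FPC diet. The barcodes described here are those in which the adult globin genes Hba-a1, Hba-a2, Hbb-bs and Hbb-bt together held at least 50% of all unique molecular identifiers (UMIs, each the tag of 1 captured transcript), with no minimum of detected genes. This rule took 4841 of the 33198 barcodes in the deposited count matrices. The barcodes were thus selected on their haemoglobin share, which is not a result about them. They were split by the number of detected genes into 4720 barcodes with fewer than 300 genes and 121 with 300 or more, 300 being the minimum in the cell filter of the study.

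The samples were fine-needle aspirates (FNA) of livers of male wild-type C57BL/6J mice, 7 weeks old when they entered a diet of fructose, palmitate, cholesterol and trans-fat (FPC). P-LC24 had received 0.05% cholesterol and P-HC24 1.25% cholesterol for 24 weeks (Progression, Prog). All mice then received 0.05% cholesterol for 8 more weeks and were sampled again at week 32, as I-LC32 after the low and I-HC32 after the high cholesterol diet (Intervention, Int). Every group thus received FPC, and no group on another diet was included. Below, 4 values in a row follow the libraries as just introduced, both week 24 libraries before both of week 32 and low before high cholesterol. Each of the 4 libraries pooled 12 biopsies, 4 from each of 3 mice, so that a condition had 1 library and no test between conditions was possible. The aspirates were digested with collagenase, passed through a red cell lysis buffer and depleted of dead cells before loading, so the red cells described are those still present after lysis, and the part of this step in their number was not tested.

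Erythropoiesis ends with the loss of the nucleus. The reticulocyte that leaves the marrow no longer transcribes its genes, but carries globin and other messenger RNAs and ribosomes, which it translates and breaks down over its maturation while ubiquitin ligases and autophagy clear organelles. Haem is made from glycine and succinyl-CoA by a chain of enzymes that starts, in erythroid cells, with Alas2, and is joined to alpha and beta globin chains. In the adult C57BL/6 mouse the alpha chains come from the gene pair Hba-a1 and Hba-a2 and the beta chains from Hbb-bs and Hbb-bt.

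The starts of 3 globin genes are shown because the genes of the rule come in pairs of copies, which limits how far their UMIs can be told apart, and that of Alas2 as an erythroid gene that the rule did not use. Each sequence is the 150 bases before the RefSeq start, read 5′ to 3′ on the strand of the gene and located in GRCm39 by an exact match. Capitals mark the motif GATAA (that of GATA factors), the motif CACCC (of Klf1), the CCAAT box or the TATA-like ATATAA, on either strand (some matches adjoin, none overlap).
Hba-a1, chr11:32233522-32233671, plus strand: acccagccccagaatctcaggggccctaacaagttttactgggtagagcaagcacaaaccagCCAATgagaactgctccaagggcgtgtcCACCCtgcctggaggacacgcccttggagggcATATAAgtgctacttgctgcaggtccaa
Hbb-bs, chr7:103477136-103477285, minus strand: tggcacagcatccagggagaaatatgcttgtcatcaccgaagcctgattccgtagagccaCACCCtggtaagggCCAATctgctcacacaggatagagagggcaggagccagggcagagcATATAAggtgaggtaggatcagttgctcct
Hbb-bt, chr7:103463131-103463280, minus strand: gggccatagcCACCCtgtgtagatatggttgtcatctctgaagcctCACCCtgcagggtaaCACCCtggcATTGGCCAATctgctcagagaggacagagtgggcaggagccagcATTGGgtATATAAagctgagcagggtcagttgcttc
Alas2, chrX:149330263-149330412, plus strand: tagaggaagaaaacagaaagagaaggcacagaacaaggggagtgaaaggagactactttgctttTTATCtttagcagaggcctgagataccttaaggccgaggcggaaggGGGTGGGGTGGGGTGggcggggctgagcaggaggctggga

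The Hba-a1 window matched a second place, chr11:32246339-32246488, at the Hba-a2 gene, so both alpha globin genes have the same sequence here. All 4 motifs lay within 250 bases before the start of each of the globin genes, with GATAA upstream of the printed stretch, and Alas2 held GATAA and CACCC only. Of 32841 promoters of the same length, 22.6% held GATAA, 52.0% CACCC, 33.9% CCAAT and 9.10% ATATAA on either strand, and 0.466% held all of them. These matches describe the letters and do not show that a factor binds. In the transcripts, Hba-a1 and Hba-a2 were identical at 428 of 429 coding bases, and all 90 bases after the stop codon of Hba-a2 aligned to identical bases of Hba-a1. Hbb-bs and Hbb-bt were identical at 443 of 444 coding bases, but at only 95 of 135 aligned bases after the stop codon, the end that this assay reads. The split of UMIs between the alpha genes is therefore uncertain, and that between the beta genes rests on sequence that differs.

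The haemoglobin-dominated barcodes were unequally spread over the libraries. P-LC24 held 1779 among 7035 barcodes, a share of 25.3% (exact Clopper-Pearson 95% interval 24.3% to 26.3%, here and below for counting error only). I-LC32 held 2170 among 9828 (22.1%, 21.3% to 22.9%). P-HC24 held 695 among 7946 (8.75%, 8.13% to 9.39%), and I-HC32 held 197 among 8389 (2.35%, 2.03% to 2.70%). Both libraries of mice that had received 1.25% cholesterol thus held a smaller share than both libraries of mice kept on 0.05%. With 1 pooled library per condition, the diet cannot be told apart from the lysis, digestion or loading of that library.

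The libraries held 50941106, 73837023, 79215858 and 89257239 UMIs. The haemoglobin-dominated barcodes took 19.4%, 5.76%, 12.9% and 1.08% of these UMIs. They held 95.6%, 92.5%, 91.8% and 83.0% of the adult globin UMIs of their libraries, a share that the rule on globin UMIs in large part sets.

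**Figure D1:**
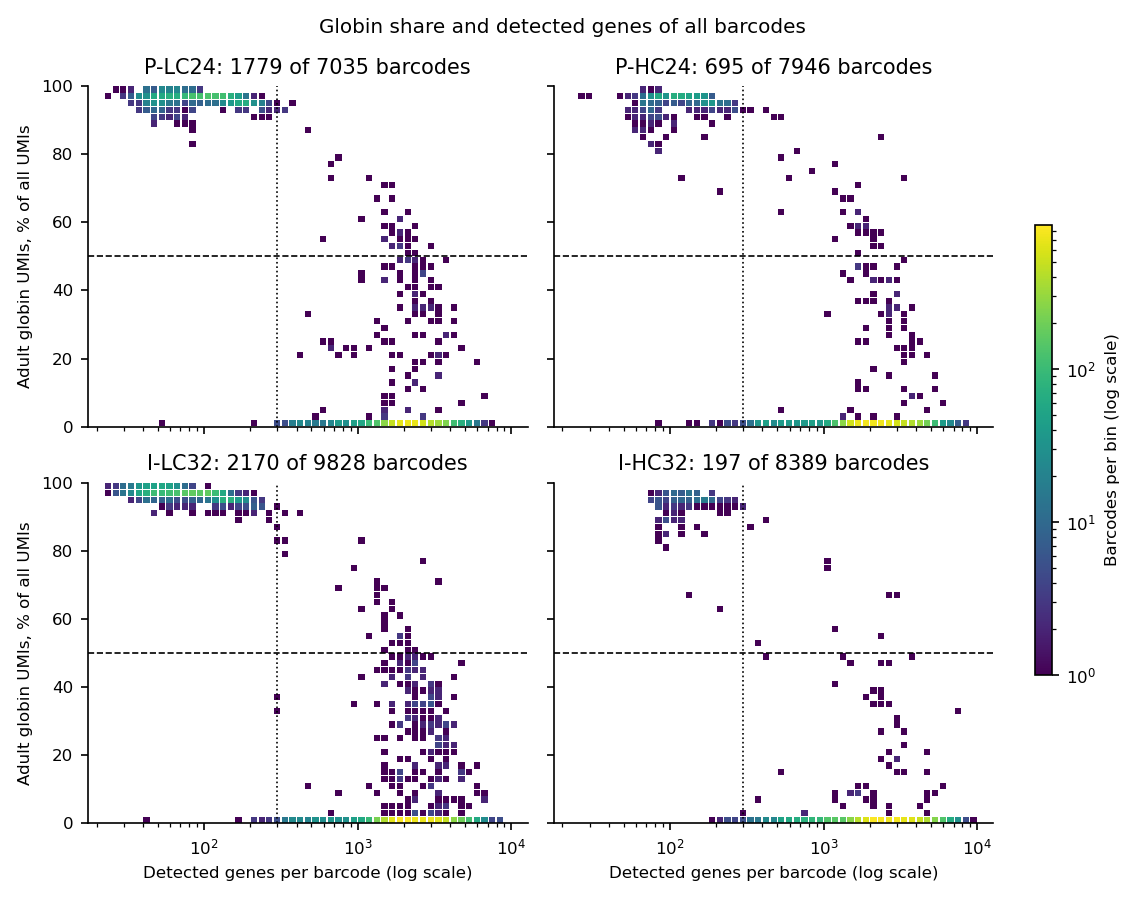
Each panel plots 1 library, with detected genes per barcode on a log axis, the adult globin share of UMIs (%) on the y axis and the number of barcodes per bin as colour on a log scale; the dashed line is 50% and the dotted line 300 genes. The haemoglobin-dominated barcodes form a dense group at the upper left, and few barcodes lie between it and the bulk near 0%.

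The plot of globin share against detected genes shows that the limit of 50% cut through a sparse region. Just inside it, between 50% and 55%, lay 12, 3, 7 and 2 barcodes. Just outside it, between 45% and 50%, lay 17, 8, 18 and 6. Most barcodes with few genes were haemoglobin-dominated: these made up 99.7%, 97.6%, 99.3% and 93.0% of all barcodes under 300 genes. The lowest UMI count in the files was 500, so barcodes with both few genes and fewer UMIs are not among those counted. Among barcodes with 300 or more genes they were 0.794%, 0.468%, 0.456% and 0.122%. The gene minimum of the study therefore leaves out nearly all of them.

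Barcodes under 300 genes held few genes, and also fewer UMIs than B cells in each library. Their median UMI count was 5379, 5832, 4708 and 4244, against 6016, 7378, 7597 and 9377 in B cell barcodes (300 or more genes, below the haemoglobin limit, with a UMI of both Cd79a and Ms4a1). Of those UMIs, a median of only 145, 176, 118 and 167 came from other genes than the adult globins. Thinned to 1000 UMIs each, which left out 77, 30, 9 and 13 shallower barcodes, they showed a median of 30, 34, 28 and 42.5 genes, compared with 606, 557, 601 and 604 in B cells thinned alike. The 121 barcodes with 300 or more genes had 294.5, 249.5, 278 and 219. These classes were set by detected genes and globin share, so their order at equal depth is a description of the rule and no result. Although few, these 121 held 34.5%, 51.7%, 29.2% and 50.1% of the non-globin UMIs of all haemoglobin-dominated barcodes, so both classes are described apart.

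Between 17 and 41 barcode sequences were shared by any pair of libraries, and at most 2 of those were haemoglobin-dominated in both. Doublets were not removed.

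The erythroid label was checked on genes that the rule did not use. Levels are given as non-globin CPM (counts of a gene per 1000000 UMIs), with the adult globin genes left out of the total. UMIs count 3′ ends and were not divided by gene length. Alas2 stood at 30687, 34267, 46391 and 36291 in the barcodes under 300 genes, and at 22 or less in the barcodes outside the rule of every library. Bpgm, which makes the 2,3-bisphosphoglycerate that lowers the oxygen affinity of haemoglobin, stood at 25674, 27092, 36639 and 22666.5, and at 24 or less elsewhere. Both genes lay above the barcodes outside the rule in 4 of 4 libraries.

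At 1000 UMIs per barcode, an Alas2 UMI was found in 61.2%, 70.05%, 71.4% and 78.7% of barcodes under 300 genes (unthinned 89.5%, 89.4%, 92.2% and 89.3%). The share in B cells, which do not express it, was 0.858%, 0.456%, 0.884% and 0.392%. Bpgm was found in 45.7%, 45.8%, 50.8% and 53.4% of barcodes under 300 genes and in 1.08%, 1.11%, 1.41% and 1.04% of B cells. The label held for the class under 300 genes on these markers.

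The make-up of the globin UMIs was similar in the 4 libraries. Alpha globin genes held 44.2%, 41.8%, 39.8% and 40.4% of adult globin UMIs. The exact interval of P-LC24 (44.17% to 44.24%) did not overlap that of P-HC24 (41.73% to 41.83%), but 1 library per condition gives no measure of how far libraries differ otherwise. In the globin UMIs outside these barcodes P-LC24 was again the highest, at 42.1% against 39.6%, 38.5% and 38.0%. Within the alpha UMIs, Hba-a1 held 56.9%, 56.7%, 56.8% and 57.4%, and within the beta UMIs Hbb-bt held 17.1%, 16.9%, 16.4% and 16.1%.

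Single barcodes differed far more in Hbb-bt than libraries did. This was looked at after the values had been seen. Over the barcodes under 300 genes, the Hbb-bt share of beta UMIs had its main peak between 16% and 20% and a second, lower one under 4%. A share under 10% was found in 467, 183, 594 and 67 barcodes (26.9%, 27.7%, 27.8% and 35.8%). These barcodes held fewer genes than the rest, with a median of 52, 79, 46 and 97 against 111, 131, 91 and 147.5. Their globin UMIs were also fewer, with medians of 1850, 2422, 2048.5 and 1784 against 6361, 6714.5, 5316 and 5478.5.

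Below 300 genes, the median Hbb-bt share was higher in barcodes with more detected genes in each library, apart from a bin of 2 barcodes in P-HC24. In P-LC24 it was 3.88% under 50 genes, 12.8% at 50 to under 100, 19.0% at 100 to under 200 and 22.2% at 200 to under 300. In I-LC32 the same medians were 4.31%, 15.3%, 18.9% and 22.7%. P-HC24 and I-HC32 had 2 and 0 barcodes under 50 genes, and went from 6.63% and 3.43% at 50 to under 100 genes to 21.5% and 21.4% at 200 to under 300. At 300 to under 1000 genes the medians were lower again, at 19.8%, 17.9%, 17.6% and 17.0%. The alpha share did not follow this order, with P-LC24 medians of 45.9%, 43.6%, 44.4% and 44.8%. Globin UMIs increased over the same bins, in P-LC24 from a median of 1304.5 through 3821 and 7352.5 to 9772, so the Hbb-bt share and depth moved together, and the part of depth in it was not tested.

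**Figure D2:**
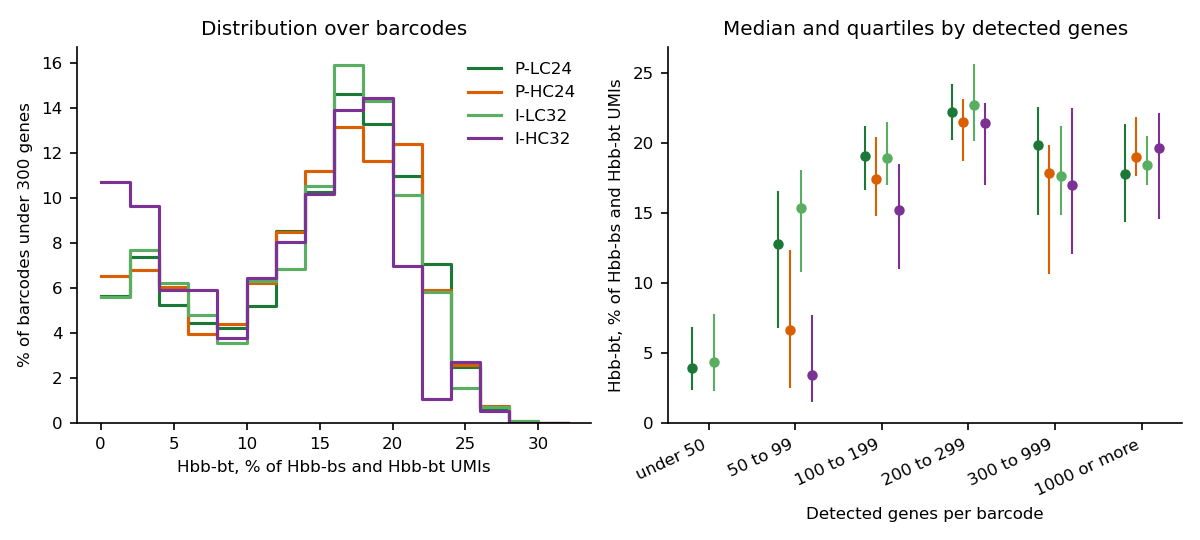
Left: distribution of the Hbb-bt share of beta globin UMIs (%) over the barcodes under 300 genes of each library, as % of those barcodes. Right: median (point) and quartiles (line) of the same share by detected genes per barcode; under 300 genes, barcodes with few genes have the lower medians, which in P-LC24 go from 3.88% to 22.2%.

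Embryonic globin genes were close to absent. Hbb-bh1 and Hbb-bh2 had no UMI and Hba-x none in any haemoglobin-dominated barcode, while the theta-like genes Hbq1a and Hbq1b had between 7 and 143 UMIs per library in the class under 300 genes. Hbb-y, the embryonic beta-like gene, had 1 UMI in the barcodes under 300 genes. In the class with 300 or more genes it had 48 UMIs, all in P-HC24, of which 47 came from 1 barcode. That barcode held 62272 UMIs, 3469 genes and a globin share of 73.6%, and also 42 UMIs of Cd79a, the signalling chain of the B cell receptor.

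Beyond haemoglobin, the barcodes under 300 genes carried the equipment of a maturing red cell. The 8 enzymes of haem synthesis summed to 3.59%, 3.84%, 5.27% and 4.11% of non-globin UMIs, of which Alas2 was the main part. Fech, which inserts the iron into the ring, stood at 4663, 3861, 5831 and 4608 CPM. The 18 genes of haem and iron transport and storage summed to 5.33%, 5.27%, 6.46% and 5.01%, led by the ferritin chains Ftl1 (25370, 27865, 33053 and 25664 CPM) and Fth1 (13478, 13088, 16929 and 11965). Slc25a37, the mitochondrial iron importer, stood at 5170, 2931, 4466 and 4632.

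Genes of protein and organelle removal were the next group. The 20 genes of ubiquitin and remodelling held 8.79%, 8.13%, 10.4% and 7.03% of non-globin UMIs. Ubb, which encodes ubiquitin, stood at 40345, 35332, 44139 and 28314.5 CPM, and Mkrn1, a ubiquitin ligase, at 20403, 21470, 28053 and 19174. The list of organelle clearance held 2.55%, 2.25%, 2.88% and 2.19%, with Bnip3l, the receptor for the removal of mitochondria in reticulocytes, at 10657, 8688, 11532 and 9884. Mitochondrially encoded genes still held 4.40%, 3.35%, 3.63% and 2.36%.

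Enzymes against oxidation and genes of the red cell membrane were also present. Antioxidant enzymes summed to 5.01%, 4.28%, 4.87% and 2.90%, led by Gpx1, the glutathione peroxidase, at 33172, 28376, 30364 and 18381 CPM and Prdx2 at 8282, 7190, 8749 and 4608. The 26 genes of membrane and skeleton summed to 1.49%, 1.07%, 1.198% and 0.860%. Of these, Slc4a1, the anion exchanger, stood at 1695, 908, 1066 and 669 CPM. Car2, a carbonic anhydrase, stood at 6026, 4542, 5938 and 4137.

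Genes of earlier stages and nuclear RNA were scarce. The 8 genes of early erythroid cells together held between 0.00629% and 0.0173% of non-globin UMIs, and the 13 erythroid transcription factors between 0.0892% and 0.110%. Tfrc, the transferrin receptor, stood at 63, 28, 25 and 0 CPM. Malat1, a nuclear RNA, stood at 1166, 1050, 1176 and 3369 in the barcodes under 300 genes, against 15894, 10170, 13554 and 13599 in the barcodes outside the rule. An exception among the 12 cell cycle genes listed was Ube2c, a ubiquitin-conjugating enzyme of mitosis, at 2554, 2179, 3142 and 1734 against 8, 13, 17 and 11 outside the rule. Genes of mitosis that the list did not hold were also present, such as Pttg1 at 1351, 1129, 1444 and 941, chosen after its values were seen.

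The share of some gene lists changed in order with the number of detected genes below 300, a measure that every gene enters and that is given as a description. In P-LC24 ribosomal protein genes went from 31.8% of non-globin UMIs under 50 genes to 21.7% at 50 to under 100, 12.1% at 100 to under 200 and 10.9% at 200 to under 300. In I-LC32 they went from 21.7% through 13.8% and 8.08% to 7.86%. From 50 to under 100 genes up to 200 to under 300, P-HC24 went from 29.2% to 12.7% and I-HC32 from 28.2% to 12.5%. The same direction was found in 4 of 4 libraries. Not every list followed an order in P-LC24, where haem enzymes stood at 2.28% under 50 genes, 4.34% at 50 to under 100 and 2.80% at 200 to under 300, and ubiquitin genes at 3.82%, 6.89%, 9.76% and 9.03% over the 4 bins. In P-HC24 and I-HC32 the ubiquitin genes rose over the 3 bins from 50 genes, from 3.69% through 8.98% to 9.26% and from 3.43% through 7.14% to 8.78%.

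Antioxidant genes went the other way, from 0.388% under 50 genes to 7.59% at 200 to under 300 in P-LC24 and from 0.525% to 7.61% in I-LC32. Gpx1 went in P-LC24 from 1164 CPM under 50 genes to 48168 at 200 to under 300, and in I-LC32 from 1193 to 43562. Car2 had 3 UMIs under 50 genes in P-LC24 and 1 in I-LC32, and stood at 13786 and 14766 at 200 to under 300. Slc4a1 had no UMI under 50 genes in P-LC24, where a count of 0 allows up to 291 CPM (3 UMIs), and stood at 3752 at 200 to under 300. Alas2 was already present in the barcodes with fewest genes, at 21526 CPM in P-LC24 and 52428 in I-LC32, was highest at 50 to under 100 genes (38620 and 59782) and stood at 21569 and 26993 at 200 to under 300.

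Bpgm stood at 2327 CPM under 50 genes in P-LC24, against 21103, 29245 and 22958 in the next bins. Camk1d, a calcium-dependent kinase gene, went over the same bins from 28992 to 5253 in P-LC24 and from 11879 to 1871 in I-LC32. These levels describe bins that were set by detected genes, and the parts of depth and of free RNA in them were not tested. The libraries differed in how many barcodes with few genes they held. Under 50 genes lay 212 in P-LC24 (11.9%) and 445 in I-LC32 (20.5%), but 2 in P-HC24 (0.288%) and 0 in I-HC32. Any sum over a library therefore mixes these bins in different proportions.

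**Figure D3:**
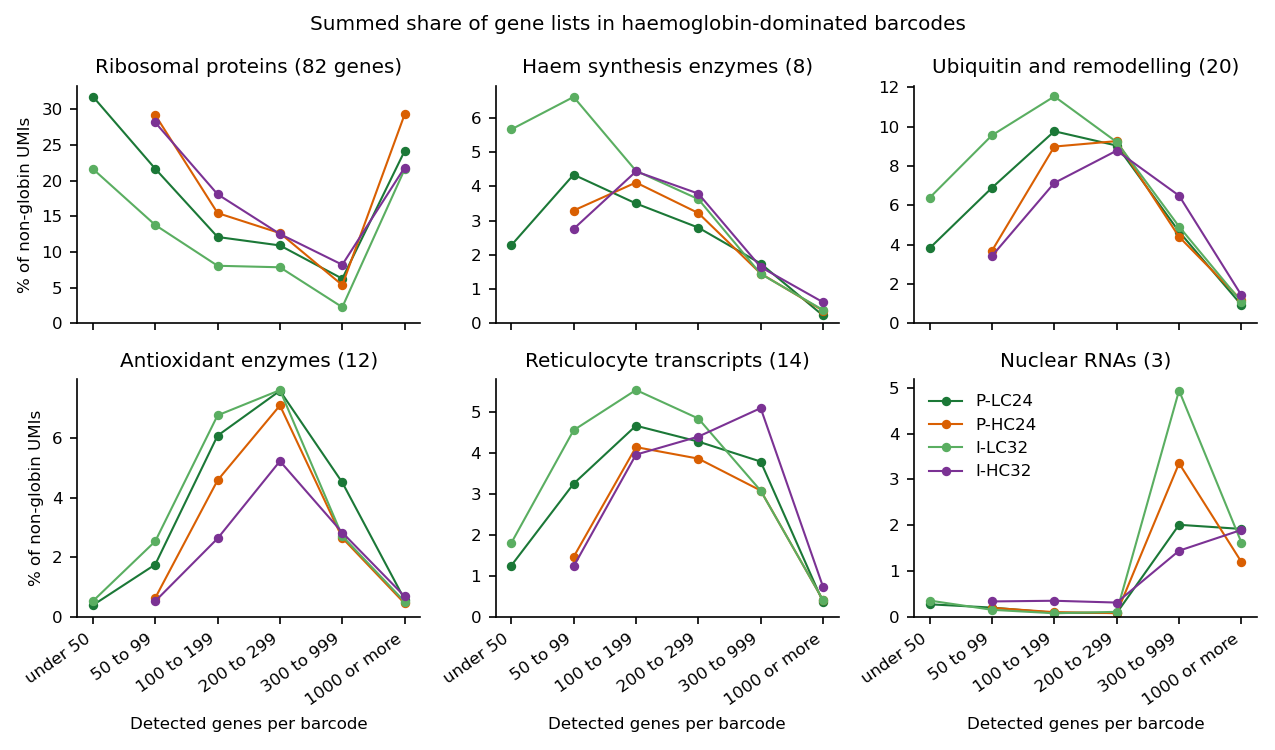
Summed share of 6 gene lists in the non-globin UMIs (%) of haemoglobin-dominated barcodes, by detected genes per barcode and library; bins with fewer than 4 barcodes are not drawn. Ribosomal proteins go from 31.8% to 10.9% over the bins under 300 genes in P-LC24 while antioxidant enzymes go from 0.388% to 7.59%, and nuclear RNAs lie at 0.353% or less in every bin under 300 genes.

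The 121 barcodes with 300 or more genes were set beside those under 300. Over 1172 genes compared as the mean log2 ratio of the libraries, 740 (63.1%) were at least 1.5-fold higher and 267 (22.8%) at least 1.5-fold lower than in the barcodes under 300 genes, and 664 of the former and 259 of the latter had the same sign in 4 of 4 libraries. The median of all genes compared was 1.11 on the log2 scale. The classes were split by detected genes and a gene could enter through the class where it is high, so the excess of higher genes was in large part set by the split and the filter and is no result about these barcodes. Scaled to all UMIs, in which the globin UMIs take part, 1104 were higher and none lower, so the directions below hold for the make-up of the non-globin UMIs. Without P-LC24, P-HC24 or I-LC32, fewer genes passed the filter and 413, 493 and 424 were higher. Of the ubiquitin and remodelling genes, 14 of 16 compared were lower and 2 higher, with a median of -2.19. Of the membrane genes 8 of 10 were lower, of the iron and haem transport genes 6 of 7 and of the antioxidant genes 5 of 7, and no antioxidant gene was higher. Alas2 stood at 2506, 3702, 3560 and 5397 CPM, a mean log2 ratio of -3.32.

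Higher in the barcodes with 300 or more genes were 11 of 12 mitochondrially encoded genes (median 1.60), all 4 B cell markers compared (2.30) and 50 of 77 ribosomal protein genes (0.80), beside 63.1% of all genes and their median of 1.11. The 1 monocyte marker and the 1 peritoneal macrophage marker compared were lower, with -2.48 and -2.52. Many of these genes, B cell markers among them, could pass the filter through the class where they are high, so the counts of both directions are a description and support nothing. Cd79a stood at 1565, 2391, 1354 and 1947 CPM, against 166, 341, 277 and 520 under 300 genes and 1140, 1508, 1521 and 1413 outside the rule. Ebf1, a B cell transcription factor, stood at 2035, 1994, 1894 and 1429, against 119, 92, 182 and 99. Malat1 stood at 18914, 13445, 17772 and 18038, with a mean log2 ratio of 3.51. The levels of these genes were of the size seen outside the rule, unlike those under 300 genes.

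**Figure D4:**
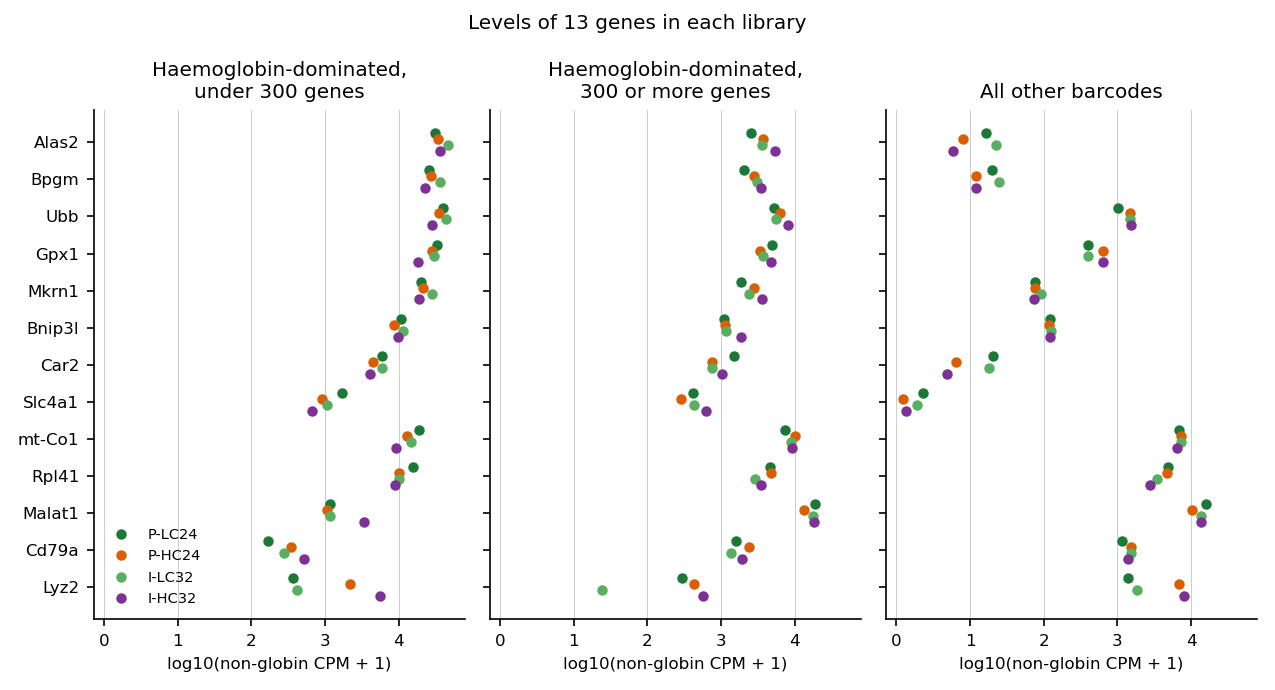
Levels of 13 genes as log10 of non-globin CPM plus 1 in the haemoglobin-dominated barcodes under 300 genes, in those with 300 or more and in all other barcodes; each point is 1 library. Red cell genes such as Alas2 and Bpgm lie highest at the left and lowest at the right, whereas Malat1 and Cd79a in the middle panel lie where they do in the right panel.

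Markers of other cell types were counted in single barcodes. Of the 121 barcodes with 300 or more genes, 94 held at least 3 UMIs of the list of another cell type. The lists were those of B cells in 73, T cells in 16, monocytes in 9, NK cells and peritoneal macrophages in 5 each, and neutrophils and hepatocytes in 2 each, where a barcode can count more than once. Only 8 held no UMI of any of these lists. Single barcodes carried much of some lists: 1892 of the 1894 neutrophil UMIs in P-LC24 came from 1 barcode, as did all 660 in I-LC32. The erythroid label does not describe these 121 barcodes alone, and they are called haemoglobin-dominated barcodes with 300 or more genes.

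Within that class, 32 barcodes with 300 to under 1000 genes differed from the 89 with 1000 or more. This limit was added after the values had been seen. In the former, Slc4a1 stood at 3814, 2552, 4493 and 4615 CPM, against 160, 93, 154 and 243 in the latter. Cd79a was at 0, 766, 121 and 865 in the former and at 1683, 2528, 1437 and 2048 in the latter. Malat1 stood at 19324, 32840, 48573 and 12980 in the barcodes with 300 to under 1000 genes. These 32 barcodes were 11, 9, 8 and 4 in the libraries, so the levels rest on few barcodes.

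Genes of earlier erythroid cells were seen in the 11 such barcodes of P-LC24, where Hemgn had 15 UMIs, Tfrc 12 and Klf1 4. Tfrc also had 5 in I-LC32 and 2 in I-HC32. Hemgn and Klf1 had no UMI in such barcodes of the other libraries, and Epor had none in any bin. Hemgn, a nuclear protein of erythroblasts, is among the erythroid markers, while Klf1, an erythroid transcription factor, and Epor, the erythropoietin receptor, were chosen after their values were seen.

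For the dietary comparisons, summed UMIs were compared between P-HC24 and P-LC24 (Prog) and between I-HC32 and I-LC32 (Int), in genes with at least 100 UMIs over both libraries and a UMI in 10% of the barcodes of either. The ratios describe single libraries and a ratio of at least 1.5-fold is not a test. Prog and Int share no library, but the same mice were sampled for both. In Prog 64 of 281 genes (22.8%) over all haemoglobin-dominated barcodes passed upwards and 64 (22.8%) downwards, and in Int 94 of 295 (31.9%) and 82 (27.8%). Without the barcodes that held a UMI of the markers of other cell types, Prog had 20 of 233 genes upwards and 23 downwards, and Int 76 of 210 upwards and 71 downwards, the latter with only 13 barcodes left in I-HC32. Scaled to all UMIs, the counts over all haemoglobin-dominated barcodes became 117 higher and 8 lower in Prog. In Int they became 180 higher and none lower. Since the class with 300 or more genes held between 29.2% and 51.7% of the non-globin UMIs, the comparison was repeated in barcodes under 300 genes. There 42 of 247 genes (17%) passed upwards and 19 (7.69%) downwards in Prog, and 89 of 250 (35.6%) and 54 (21.6%) in Int.

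Of 232 genes compared in both, 39 were at least 1.5-fold higher in both and 5 lower in both, and none passed in opposite directions. The scale matters for these counts. Scaled to all UMIs, a choice added after the values were seen, the median gene under 300 genes moved from -0.04 to 0.10 (log2) in Prog and from -0.06 to 0.54 in Int. The counts then became 63 higher and 12 lower in Prog and 123 higher and 1 lower in Int. The move is the same for every gene, so groups are read below by their distance from the median of all genes, which the scaling leaves as it is.

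Ribosomal protein genes lay above that median. In Prog 22 of 74 were at least 1.5-fold higher, where 17% of all genes were, and 1 was lower, with a median log2 ratio of 0.46 against -0.04 for all genes. In Int 58 of 74 were higher, where 35.6% of all genes were, and none was lower, with a median of 0.92 against -0.06. Together, 64 of the 74 lay above the median of all genes in both comparisons, as did 92 of all 232 genes compared in both. As a summed share of non-globin UMIs they held 15.0%, 17.4%, 11.02% and 18.2%. Rps24, of the small subunit, stood at 4816, 6061, 3966 and 6763 CPM. In both pairs it was higher in the library of mice that had received high cholesterol up to week 24. In Int, both groups received low cholesterol when sampled, so that pair compares the earlier diets. Rpl41, of the large subunit, went the other way with 15800, 10164, 10168 and 8819, and its Int log2 ratio of -0.21 turned to 0.40 when scaled to all UMIs.

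Genes of the erythroid lists lay mostly below the median. Of 37 compared in both, 27 lay below the median of all genes in both comparisons and 1 above it in both, beside 93 and 92 of all 232 genes. Below a ratio of 1 were 30 in Prog and 36 in Int, which became 22 and 17 when scaled to all UMIs. Of all 232 genes, 120 and 125 were below a ratio of 1, which became 95 and 52. All 5 antioxidant genes compared were at least 1.5-fold lower in Int, where 21.6% of all genes were, and none in Prog, but scaled to all UMIs only 1 gene of any kind was lower in Int. Gpx1 had a log2 ratio of -0.23 (-0.28 to -0.17) in Prog and -0.72 (-0.83 to -0.62) in Int, which scaled to all UMIs became -0.09 and -0.12. Prdx2, a peroxiredoxin, had -0.20 and -0.93, which became -0.06 and -0.32.

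Of the haem enzymes 2 could be compared, and under 300 genes neither passed 1.5-fold in Prog or Int, while over all haemoglobin-dominated barcodes 1 of them was lower in each. Under 300 genes, Fech had a log2 ratio of -0.27 (-0.42 to -0.13) in Prog and -0.34 (-0.56 to -0.12) in Int, where scaling to all UMIs adds 0.60 to every ratio and puts Fech above 0. Alas2 had a log2 ratio of 0.16 (0.11 to 0.21) in Prog and of -0.35 (-0.43 to -0.28) in Int, and the latter turned to 0.25 when scaled to all UMIs. Bpgm, of the glycolysis list, had 0.08 (0.02 to 0.13) and -0.69 (-0.79 to -0.60), the latter -0.09 when scaled to all UMIs. In the barcodes with 300 or more genes Alas2 was higher in Int, with a log2 ratio of 0.60, the opposite of the -0.35 under 300 genes. That ratio rests on only 10 barcodes in I-HC32 and 35 in I-LC32. The 2 deepest of the former held 87 and 38 Alas2 UMIs, and also UMIs of Cd79a. Of the mitochondrially encoded genes 6 of 6 lay below the median in both pairs under 300 genes. So did 93 of all 232 genes, a share lowered by the 74 ribosomal protein genes among them. Over all haemoglobin-dominated barcodes the medians of the mitochondrially encoded genes turned to 0.58 in Prog and 0.33 in Int, above those of all genes (-0.12 and 0.01). Under 300 genes, mt-Co1, a subunit of cytochrome oxidase, stood at 18827, 12811, 14857 and 9116 CPM.

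Among single genes, Sec61g, a subunit of the translocation channel of the endoplasmic reticulum, stood at 24984, 14011, 14633 and 7209. Its log2 ratio was -0.83 (-0.91 to -0.76) in Prog and -1.02 (-1.20 to -0.85) in Int, and it stayed below 0 in both when scaled to all UMIs (-0.69 and -0.42). Rec114, known from meiotic recombination, stood at 3914, 1909, 1884 and 966 and Mpc2, of the mitochondrial pyruvate carrier, at 1062, 944, 1110 and 421. The low cholesterol libraries differed from each other by about as much as Prog in Sec61g and Rec114. Mpc2 was lower in Int, with a log2 ratio of -1.40 (-2.19 to -0.70) from only 17 UMIs in I-HC32, and also when scaled to all UMIs (-0.79). Gda, guanine deaminase, had -1.19 in Prog and 0.22 in Int.

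**Figure D5:**
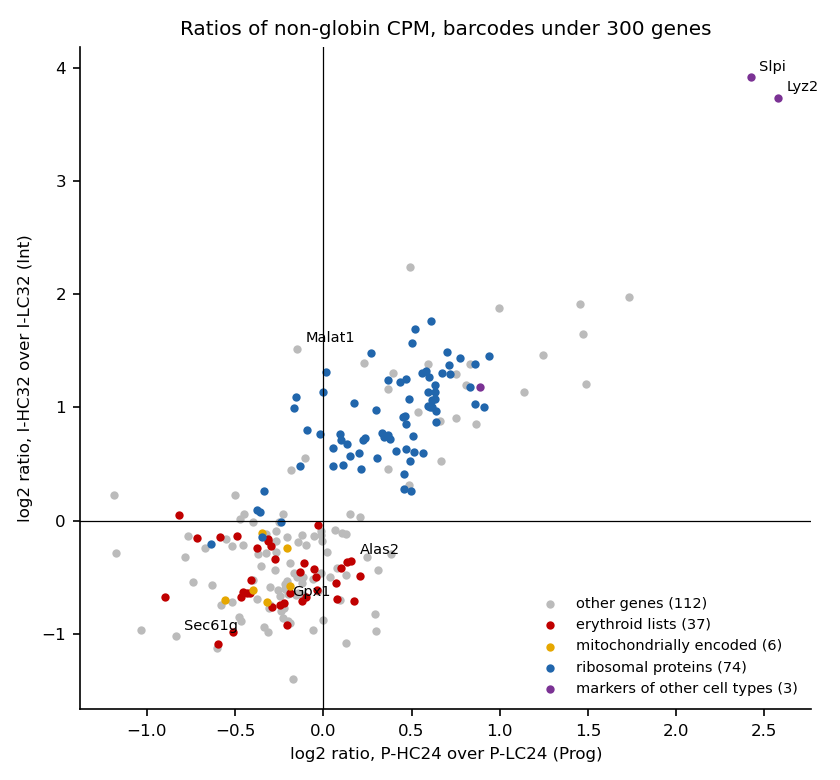
Log2 ratio of non-globin CPM in Prog (x axis) and Int (y axis) for 232 genes in the haemoglobin-dominated barcodes under 300 genes, coloured by gene group. Most ribosomal protein genes lie at the upper right and most erythroid genes at the lower left, and Lyz2 and Slpi lie apart at the top; scaling to all UMIs would move all points by 0.14 to the right and 0.60 upwards.

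Lyz2 and Slpi had the highest ratios of all genes compared, in Prog and in Int. Lyz2, the lysozyme of macrophages and monocytes, stood at 370, 2207, 415 and 5524 CPM under 300 genes, a log2 ratio of 2.58 (2.27 to 2.90) in Prog and 3.73 (3.42 to 4.06) in Int. It had a UMI in 6.22%, 36.6%, 5.67% and 64.2% of these barcodes and in 8.19%, 51.0%, 11.96% and 72.8% of B cell barcodes. These shares lie below those in B cells in each library, were not thinned to 1 depth and are not read as expression by red cells. In I-HC32, 20 of the 187 barcodes held at least 3 UMIs of the monocyte list, with up to 14 in 1 barcode, and the source of these UMIs was not tested. Slpi, a protease inhibitor of peritoneal macrophages, stood at 213, 1143, 261 and 3939 CPM, with a UMI in 3.68%, 20.9%, 3.84% and 51.3% of barcodes and in 5.33%, 39.1%, 9.54% and 54.9% of B cells. Outside the rule Lyz2 stood at 1403, 6846, 1833 and 8082 CPM.

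Some lists of markers of other cells differed between the diet groups in the same barcodes. The 4 monocyte markers summed to 0.0404%, 0.229%, 0.0437% and 0.557% of non-globin UMIs under 300 genes, with Lyz2 the most abundant in each and Csf1r and Ccr2 at 0 in I-HC32. The 4 peritoneal macrophage markers summed to 0.0229%, 0.148%, 0.0286% and 0.486%, led by Slpi, with Gata6 at 0 in I-LC32 and I-HC32. The 5 Kupffer cell markers summed to 0.00564%, 0.0192%, 0.00440% and 0.0743%, led by C1qb, with Clec4f at 0 in every library and Vsig4 in all but P-HC24. The 5 B cell markers summed to 0.0749%, 0.136%, 0.110% and 0.218%, all detected and led by Ighm. These 4 lists and that of platelets (9, 25, 16 and 16 UMIs, led by Pf4) held a larger share in the higher cholesterol library of both pairs. The lists of T cells (58, 21, 46 and 5 UMIs), neutrophils (94, 50, 66 and 3) and hepatocytes (16, 2, 12 and 0) did not differ beyond counting error in Prog or in Int. The NK cell list (43, 9, 17 and 5 UMIs) had a smaller share in P-HC24 than in P-LC24 and did not differ beyond counting error in Int.

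No UMI of any list of other cell types was found in 69.6% of the barcodes under 300 genes in P-LC24 and in 72.6% in I-LC32, but in 28.3% in P-HC24 and 6.95% in I-HC32. At least 3 UMIs of 1 list were found in 64 of the 4720, of which 2 were in P-LC24 (0.115%), 8 in I-LC32 (0.375%), 18 in P-HC24 (2.72%) and 36 in I-HC32 (19.3% of its 187). Malat1 was also higher in I-HC32 than in I-LC32, by 1.52 on the log2 scale, but not in Prog (-0.15, -0.43 to 0.13), while Vim, an intermediate filament gene of immune and stromal cells, was higher in both, by 1.73 in Prog and 1.98 in Int. Ribosomal protein genes are expressed by those cells as well, and the part of RNA from other cells in their ratios was not tested. In the barcodes of either class without a UMI of these lists, Rps24 had a log2 ratio of 0.23 in Prog and 0.61 in Int. In all barcodes under 300 genes it had 0.33 and 0.77. The barcodes without such a UMI numbered 1212, 188, 1555 and 13, so the Int value rests on few barcodes of I-HC32. Rps24 is 1 of 74 ribosomal protein genes, and the list as a whole was not compared in these barcodes. Barcodes with fewer UMIs are also more likely to hold no such UMI, so the Rps24 values mix depth with the presence of other RNA. Cma1, a mast cell chymase, stood at 210, 582, 403 and 1263 CPM under 300 genes and at 14, 61, 21 and 70 outside the rule. Its UMIs were found in 3.40%, 11.2%, 5.43% and 23.0% of barcodes under 300 genes, close to the 3.94%, 13.4%, 4.67% and 22.8% in B cells.

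The libraries of the same low cholesterol diet, I-LC32 and P-LC24, taken 8 weeks apart, served as a gauge of how far libraries differ without a change of cholesterol. They are also the denominators of Int and Prog. Over all haemoglobin-dominated barcodes 11 of 235 genes (4.68%) were higher and 27 (11.5%) lower in I-LC32, and under 300 genes 7 of 223 (3.14%) were higher and 32 (14.3%) lower. Of the ribosomal protein genes 20 of 69 were lower and none higher. Camk1d had the values 12450 CPM in P-LC24 and 4705 in I-LC32, a log2 ratio of -1.40 (-1.49 to -1.32), and Alas2 had 30687 and 46391, a log2 ratio of 0.60 (0.56 to 0.63). Sec61g had -0.77 (-0.82 to -0.72) and Rec114 -1.05 (-1.20 to -0.91) in the same comparison, next to -0.83 and -1.04 in Prog. Differences of that size thus occurred between libraries of mice whose cholesterol intake had not changed.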

How the data were processed

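The deposited files were 4 matrices of raw counts, which the authors made as UMI counts per gene and barcode from 10x 3′ v3.1 libraries with Cell Ranger 9.0.1 on GRCm39, each with 33696 genes. Seurat 5.3 is also named in the submitters' processing notes. No filter on cells, no doublet removal and no correction of free RNA was applied here. Python 3.11.15, numpy 2.4.6, pandas 2.3.3, scipy 1.17.1 and matplotlib 3.10.9 were used.

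Counts were summed over the barcodes of a class in each library and divided by the non-globin total. The planned design had no test between conditions, since each had 1 library. Ratios carry exact conditional Poisson 95% intervals and shares Clopper-Pearson intervals, which cover counting error only. Ratios used genes with at least 100 UMIs over both libraries and a UMI in 10% of barcodes of either. The class ratios used a pseudocount of 0.5 UMIs and the mean of 4 libraries. The scripts were tested on simulated data.

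The members, gene lists and choices of result were made with earlier results of these data known. Named genes were the rule's genes and markers, the 3 most abundant members of each list, the 15 most abundant genes, and the 10 highest and 10 lowest ratios in Prog, Int and between classes. Genes outside this rule are named as chosen after their values were seen. Hbb-bh0, Ahsp and Txn were not analysed here, and some genes that the rule names are not reported here. Promoter sequences were taken from RefSeq (GRCm38.p6 table) and located in GRCm39, and gene annotation from GENCODE vM39.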

Additional observations from a re-analysis of the deposited data

How the results depend on the processing

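No paired analysis was possible because each condition had 1 library. Of 27 other settings, those that moved the results are given; 2 that join fewer than 300 genes with scaling to all UMIs were chosen after seeing the data. Leaving out barcodes under 300 genes gave shares of 0.794%, 0.468%, 0.456% and 0.122% in the libraries in the order used above. A limit of 90% gave 8.07% in P-HC24 and 1.97% in I-HC32, and one of 30% gave 23.1% in I-LC32. The alpha share was 44.7%, 42.6%, 40.6% and 41.5% as a mean over barcodes, 44.1%, 40.2%, 38.4% and 40.1% with 300 or more genes, and 41.9% (P-HC24) and 39.9% (I-LC32) at a limit of 90%.

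Genes higher in Prog (64) became 117 scaled to all UMIs, 909 with a filter of 20 UMIs, 107 at 1.2-fold, 20 at 2-fold, 42 under 300 genes, 32 at a limit of 90%, 40 as a mean over barcodes and 20 without barcodes holding other markers. Genes lower in Prog (64) became 8, 479, 116, 12, 19, 19, 26 and 23 in the same order, 40 centred on the median gene and 12 under 300 genes scaled to all UMIs. Genes higher in Int (94) became 180 scaled to all UMIs, 857 with 20 UMIs, 37 at 2-fold and 42 with 300 or more genes. Genes lower in Int (82) became 0, 489, 18 and 17 in the same order, 127 at 1.2-fold, 54 under 300 genes, 36 at 90% and 1 under 300 genes scaled to all UMIs. Between classes, genes higher (740) ranged from 413 to 685 with 1 library left out and were 188 at 90%, and genes lower (267) were 0 scaled to all UMIs and 82 at 90%.

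Of the lists, 0 were higher in Prog, against 4 scaled to all UMIs, 1 without other markers, 2 with 300 or more genes and 1 under 300 genes scaled to all UMIs. Lists lower in Prog (2) became 0 scaled to all UMIs and 1 under 300 genes, on either scale. Lists lower in Int (9) became 0 scaled to all UMIs, 5 under 300 genes, 2 with 300 or more and 1 under 300 genes scaled to all UMIs.

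With 300 or more genes, log2 ratios turned to 0.039 for Bnip3l and 0.036 for Rpl41 in Prog, and in Int to 0.60 for Alas2, 0.19 for Bpgm, 0.57 for Ubb, 0.36 for Gpx1, 0.41 for Ftl1, 0.57 for Mkrn1, 0.39 for Sec61g and 0.73 for Pabpc1. The lists turned in Int to 0.63 for haem enzymes, 0.46 for iron transport, 0.20 for glycolysis, 0.43 for antioxidants, 0.41 for carbonic anhydrases, 0.71 for organelle clearance, 0.48 for ubiquitin, 0.94 for reticulocyte transcripts and -0.72 for early erythroid genes. Scaled to all UMIs, Int ratios turned to 0.24 for Alas2, 0.089 for Ubb, 0.22 for Ftl1, 0.082 for Mkrn1, 0.32 for Tfdp2 and 0.34 for Pabpc1, and for the lists to 0.25 for haem enzymes, 0.29 for iron transport, 0.16 for carbonic anhydrases, 0.27 for organelle clearance, 0.14 for ubiquitin and 0.34 for reticulocyte transcripts. The class with 300 or more genes had 42, 34, 35 and 10 barcodes in the libraries, so its Int ratios rest on few barcodes of I-HC32. Scaling adds the same amount to every gene, and the cause of the other changes was not tested.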
